A study of Mus musculus with 15 samples.

Results

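Cell lines made with 2 different oncogenes from 1 kind of epithelium, the Myc lines and the Ras lines, were compared directly over 19938 genes. The comparison used 6 of the 15 arrays of the series, and its members were all arrays titled as Myc or as Ras overexpression. The cells came from the ventral prostate of FVB mice, and RNA of 5 groups with 3 arrays each was measured on whole-transcript arrays. Myc lines carry c-myc and Ras lines ha-ras. NeuT lines carry neuT, Src lines carry a v-src gene, and the control group is primary prostate epithelium with no transduced gene. The sources used here give neither the promoters that drove these genes nor the ages of the mice. All 4 kinds of line were grown in DMEM with 10% FBS and harvested at 85 to 90% confluence, so that medium is shared by the Myc and Ras arrays. Control cells stood in that medium for the last night only, and they are left out of the tests below, other than an alternative fit in the closing section.

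Myc is a transcription factor that pairs with Max on DNA and is known for raising genes of ribosome assembly, nucleotide synthesis and metabolism. Ras is a small GTPase that carries signals from growth factor receptors to the kinase cascade ending in ERK, and from there to transcription factors of the ETS and AP-1 families. Sustained Ras signalling in epithelial cells is known to be able to accompany a mesenchymal transition. In that transition junction proteins and keratins give way to vimentin, N-cadherin and secreted proteases under the repressors Zeb1, Zeb2 and Snai2.

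Array medians lay between 6.19 and 6.32 on the log2 scale. Between any 2 Myc arrays, 15 to 31 genes differed by 2-fold or more, and Pearson's r over genes was 0.994 to 0.996. Between any 2 Ras arrays it was 185 to 332 genes, with r of 0.980 to 0.987, so the Ras arrays were less alike. Genes are no replicates, and these r describe the arrays only. Among the 12 line arrays the first principal component, with 45.5% of the variance, set the Ras arrays (53.72 to 57.71) apart from the other 9 (-23.94 to -10.99). Ras 3 differed from Ras 1 and Ras 2 in its interferon genes, and the counts of called genes, the gene lists and the named genes of the Myc and Ras comparison were repeated without it. The design text gives 3 lines for each oncogene, and no label says which array is which line or whether lines are separate clones. The p-values therefore rest on the scatter of these arrays alone, and that scatter may be technical.

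The transduced genes were read first. Myc was at 8.81, 8.60 and 8.94 in the arrays labelled Myc, against 8.62, 8.72 and 9.45 in the arrays labelled Ras. These groups overlapped, and the log2 difference of -0.15 ± 0.18 (SE) had an adjusted p of 0.6 (limma, Benjamini-Hochberg over all genes, as for each adjusted p below). In the NeuT, Src and first 2 control arrays Myc averaged 10.97, 10.47 and 9.87. The level of Myc therefore did not check the label Myc, and "Myc lines" means throughout the arrays that carry that label. Hras had no probe set of its own and was not analysed here, so the label Ras was not checked either. Nras, a close relative of Hras, had a log2 difference of 0.22 ± 0.09 with an adjusted p of 0.0825, and passed without Myc 3 (0.32, adjusted p = 0.0117).

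A gene was called where its adjusted p was under 0.05 and its 2 group means were at least 2-fold apart. By that rule 611 of 19938 genes (3.06%) were higher in the Myc lines than in the Ras lines, and 621 (3.11%) were lower. The arrays of the groups did not overlap for 609 of the 611 and 609 of the 621. Over all genes this held for 7756 of 19938. The calls were made on the same arrays, so the lack of overlap adds no support to them. Differences were at least 4-fold for 119 of the higher and 195 of the lower genes, and at least 16-fold for 25 and 32. With the adjusted p alone, 3529 genes (17.7%) were higher and 2525 (12.7%) lower. That split depends on scaling and became 4519 higher and 2000 lower when each array was centred on its median. The median difference over all genes was 0.01, and the 5th and 95th percentiles were -0.74 and 0.79. Without Ras 3, 670 genes (3.36%) were called higher and 595 (2.98%) lower, of which 588 and 551 were also called with all arrays.

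In either direction, Myc against Ras gave 1232 called genes (6.18%), which can be set beside the other pairs of lines by the same rule. NeuT against Ras gave 1200 (6.02%) and Ras against Src 1108 (5.56%). The pairs without Ras gave 471 for Myc against NeuT (2.36%), 629 for Myc against Src (3.15%) and 714 for NeuT against Src (3.58%). These pairs share arrays, and the differences between their counts were not tested. Background was not measured on these arrays. The median of all gene values in the lines was 6.46. Lower levels may lie near background, and the size of a difference that involves one is unsure.

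**Figure D1:**
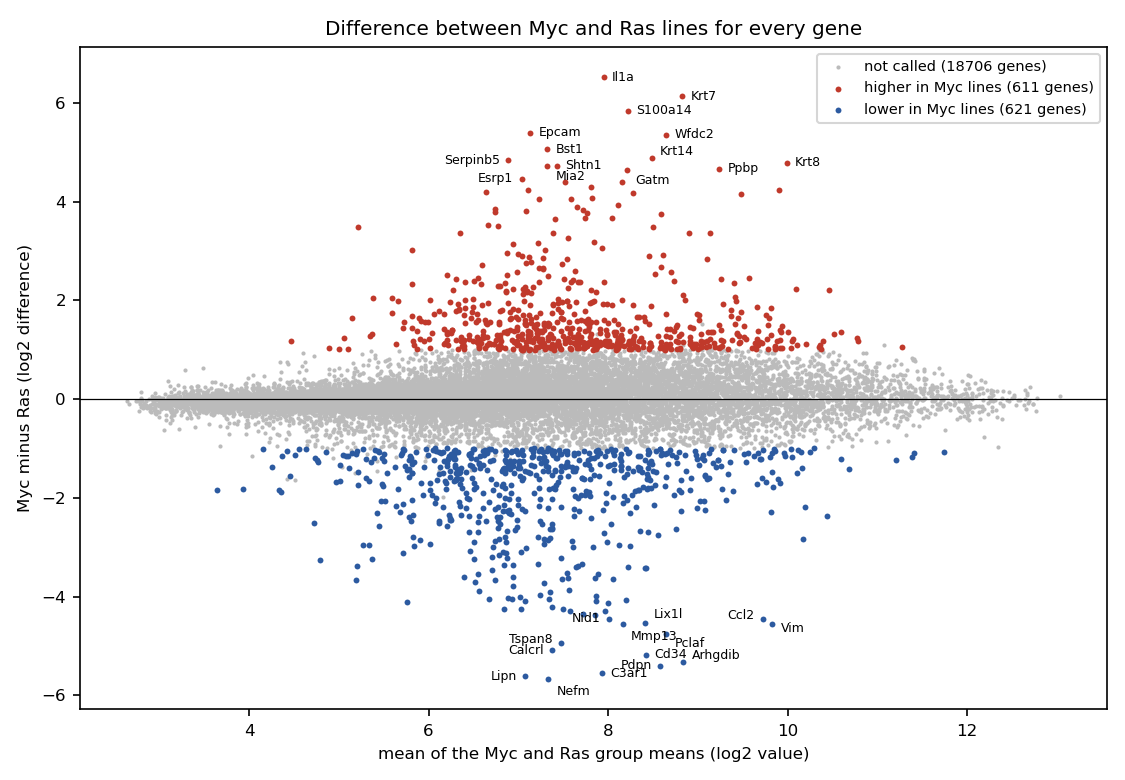
Log2 difference of the group means, Myc minus Ras (vertical axis), against the mean of both group means in log2 units (horizontal axis), with 1 point per gene for 19938 genes. The 611 genes called higher in the Myc lines are red, the 621 called lower are blue, and the 14 genes named by size in each direction carry their symbols; Il1a reaches 6.52 and Nefm -5.67.

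The largest differences in each direction are given by gene. Il1a, the cytokine interleukin 1 alpha, had log2 values of 11.04, 11.15 and 11.44 in the Myc lines, against 4.69, 4.36 and 5.03 in the Ras lines. All Myc arrays were high and all Ras arrays low, a difference of 6.52 ± 0.14 or 91.5-fold (adjusted p = 9.86e-13). Krt7, a keratin of simple epithelia, was at 11.90, 11.93 and 11.85 in the Myc lines, against 5.75, 5.76 and 5.77 in the Ras lines. Its groups were likewise far apart, with a difference of 6.13 ± 0.08 (adjusted p = 5.9e-15). S100a14, a calcium-binding protein, followed with 5.84, then Epcam with 5.39 and the secreted Wfdc2 with 5.35. The ectoenzyme Bst1 (5.06), the basal keratin Krt14 (4.89), the serpin maspin, Serpinb5 (4.84), and the simple keratin Krt8 (4.79) came next. Shtn1 (4.72), Mia2 (4.72), the chemokine Ppbp (4.66), the creatine synthesis enzyme Gatm (4.63) and the splicing regulator Esrp1 (4.46) completed the 14. Ppbp varied most among the Ras arrays, with 7.76, 5.35 and 7.62.

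In the other direction, the neurofilament gene Nefm was at 4.41, 4.53 and 4.57 in the Myc lines, against 9.55, 10.99 and 9.98 in the Ras lines. The difference was -5.67 ± 0.25 (adjusted p = 1.03e-09). The lipase gene Lipn (-5.61), the complement receptor gene C3ar1 (-5.55), podoplanin, Pdpn (-5.40), and Arhgdib (-5.32) came next. The surface glycoprotein Cd34 (-5.18), the peptide receptor Calcrl (-5.09), the tetraspanin Tspan8 (-4.95) and the PCNA partner Pclaf (-4.75) followed. Vimentin, Vim, and the collagenase Mmp13 both differed by -4.56, Lix1l by -4.53, the monocyte chemokine Ccl2 by -4.46 and the basement membrane protein Nid1 by -4.45.

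Both sides of the comparison were set against the mean of the NeuT and Src lines. Of the 14 genes named as higher, 13 had a Ras level farther from the mean of NeuT and Src than the Myc level was, and so had 13 of the 14 named as lower. The exceptions were Gatm and Vim. Where NeuT and Src lines differ from each other, their mean does not show which side stood apart. Mmp13 is such a gene, with Src lines near the Ras lines and NeuT lines near the Myc lines. Gatm was at 10.63, 10.49 and 10.47 in the Myc lines, against means of 8.30 in NeuT and 5.47 in Src lines. Vim, the intermediate filament of mesenchymal cells, was at 7.43, 7.67 and 7.54 in the Myc lines, against 12.19, 11.94 and 12.19 in the Ras lines. NeuT and Src lines lay between these, with Vim means of 10.79 and 9.38. Il1a was at a mean of 10.84 in NeuT and 11.37 in Src lines, close to the Myc lines, and at 6.09 in control arrays 1 and 2.

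**Figure D2:**
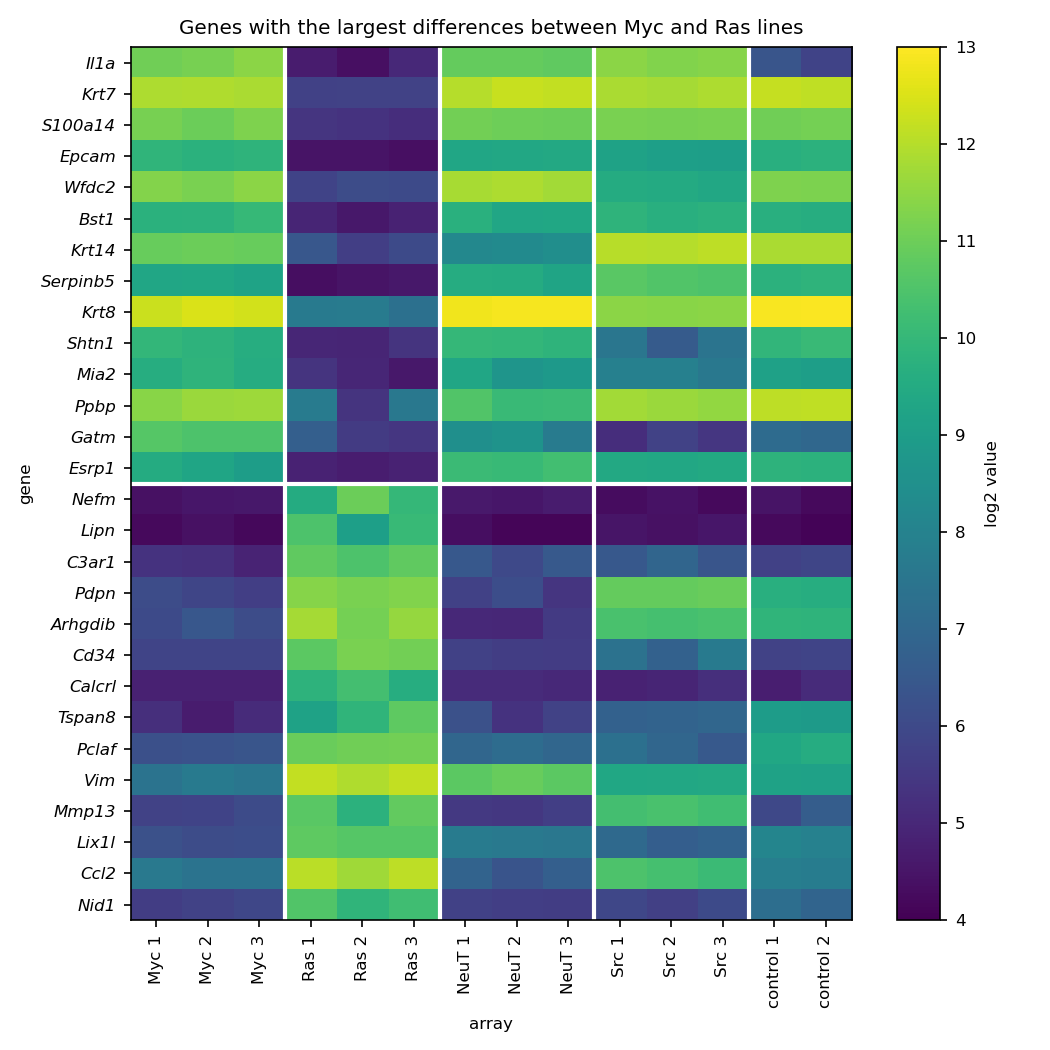
Log2 value (colour) of the 14 genes with the largest positive and the 14 with the largest negative Myc minus Ras difference (vertical axis) in the line arrays and control arrays 1 and 2 (horizontal axis). For most of these genes the 3 Ras columns differ from all other columns, while Gatm is highest in the Myc columns.

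Gene lists for epithelial and mesenchymal identity, signalling, metabolism, the cell cycle and other cell types were then read. A list member was counted as higher or lower in the Myc lines at an adjusted p under 0.05 in the fit over all genes, with no fold minimum. The shares to read these counts against are 17.7% of all genes higher and 12.7% lower, and the median difference of all genes was 0.01.

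**Figure D3:**
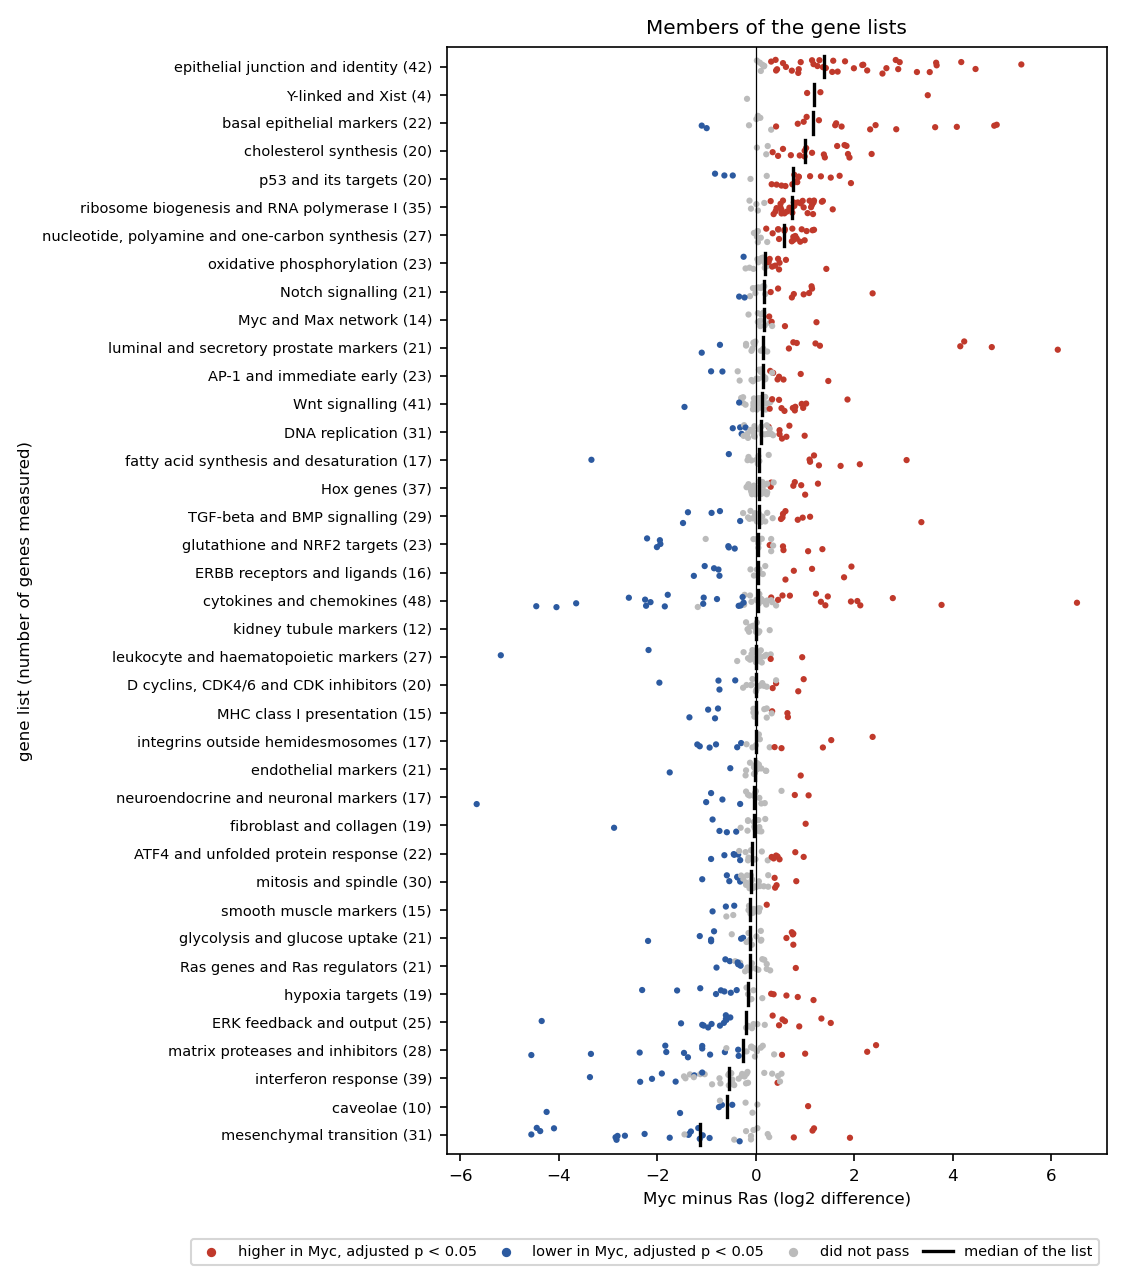
Log2 difference, Myc minus Ras (horizontal axis), of each measured member of the gene lists (vertical axis, with the number measured), sorted by the median of the list (black bar). Red points passed as higher in the Myc lines, blue points as lower and grey points did not pass; the list of epithelial junction genes has the highest median, 1.39, and the mesenchymal list the lowest, -1.14.

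Genes of epithelial junctions and identity were higher in the Myc lines than in the Ras lines. Of 42 measured, 36 were higher, 26 of them by at least 2-fold, and 0 were lower by limma, also at an unadjusted p under 0.05. The median difference was 1.39. In a mixed RNA sample, fewer cells of a type and less RNA per cell cannot be told apart, here as in what follows. Epcam, an adhesion protein of epithelial surfaces, was at 9.89, 9.75 and 9.85 in the Myc lines, against 4.46, 4.47 and 4.38 in the Ras lines. Cdh1, which encodes E-cadherin of the adherens junction, was at 9.51, 9.53 and 9.70 in the Myc lines, against 5.88, 6.14 and 5.71 in the Ras lines. Neither gene's groups overlapped, and the Cdh1 difference was 3.67 ± 0.11 or 12.7-fold (adjusted p = 1.81e-11). NeuT and Src lines, with Cdh1 means of 10.45 and 9.94, and control arrays 1 and 2, with 11.32, all had more Cdh1 signal than the Myc lines.

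Tight junction claudins were higher as well. Cldn7 differed by 4.17, Cldn1 by 3.53 and Cldn4 by 2.84, and occludin, Ocln, by 1.29. Tjp1, the scaffold of the tight junction, did not pass, with a difference of 0.13 ± 0.09 and an adjusted p of 0.337. Regulators of the epithelial state followed the junction genes. Grhl2, a transcription factor that maintains epithelial genes, was at 8.47, 8.45 and 8.53 in the Myc lines, against 5.64, 5.36 and 5.77 in the Ras lines. The vesicle GTPase Rab25 (3.66), the membrane protease St14 (3.27) and its inhibitor Spint1 (1.99) were also higher. The desmosomal plaque protein Dsp stood at 10.09, 10.09 and 9.80 in the Myc lines, against 6.82, 6.79 and 8.65 in the Ras lines. Here Ras 3 stood nearer to the Myc lines, and the difference was 2.57 with it and 3.19 without it.

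Zeb and Snail repressors bind the sequence CACCTG, and the stretches of Epcam, Krt7 and Cldn4 that hold it upstream of the gene start are shown because each gene was higher in the Myc lines by over 4-fold and holds the motif. They are from RefSeq in the build GRCm38.p6, 5′ to 3′ on the gene's own strand, with the motif in capitals. They lie at chr17:87635757-87635832 (plus strand) for Epcam, chr15:101412324-101412399 (plus) for Krt7 and chr5:134946935-134946983 (minus) for Cldn4.
Epcam: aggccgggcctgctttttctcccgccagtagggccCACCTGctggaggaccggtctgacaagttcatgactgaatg
Krt7: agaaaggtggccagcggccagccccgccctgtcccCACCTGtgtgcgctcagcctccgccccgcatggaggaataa
Cldn4: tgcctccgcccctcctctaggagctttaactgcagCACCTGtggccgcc
The motif begins 187 bases before the start in Epcam, 44 in Krt7 and 14 in Cldn4, and Epcam holds another copy, as CAGGTG, 19 bases before it. CAGGTG is CACCTG on the opposite strand, so either form counted.

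The 250 bases before the start were searched in the 15614 genes that matched a RefSeq promoter, and a gene with several promoters was counted if any held the motif. CACCTG or CAGGTG stood in 14 of 24 epithelial junction genes (58.3%) and 6 of 11 basal markers (54.5%). It stood in 2 of 19 mesenchymal genes (10.5%) and in 19.3% of all matched genes. Among the called genes it was held by 151 of 490 higher in the Myc lines (30.8%) and 60 of 456 lower (13.2%). A match describes the letters only, and these shares were not tested.

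Most basal cell markers, several keratins among them, were higher in the Myc lines. Of 22 basal markers, 15 were higher and 2 lower, with a median of 1.16. Of 21 luminal and secretory markers, 9 were higher, 2 were lower and 10 did not pass, with a median of 0.15. Krt5, the basal partner of Krt14, was at 9.40, 9.29 and 8.99 in the Myc lines, against 5.64, 5.66 and 5.47 in the Ras lines (difference 3.64 ± 0.10, adjusted p = 1.44e-11). NeuT lines were as low as Ras lines for Krt5, with a mean of 5.70, while Src lines had 12.19. Krt18, the partner of Krt8, was at 11.51, 11.65 and 11.51 in the Myc lines, against 9.83, 6.58 and 5.80 in the Ras lines. The Ras arrays differed widely there, and Krt18 passed with a difference of 4.15 ± 0.68 (adjusted p = 0.000311). That SE pools the spread over all groups of lines, so it can be too small for the Ras arrays. Cd24a, a surface glycoprotein, showed a like spread, with 9.16, 5.88 and 8.33 in the Ras lines, below the 12.00, 12.00 and 12.04 of the Myc lines.

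Trp63, the defining transcription factor of basal cells, did not follow the keratins. It was at 5.85, 6.21 and 6.10 in the Myc lines, against 6.30, 6.25 and 6.04 in the Ras lines, where the groups overlapped (adjusted p = 0.343). It averaged 9.58 in Src lines and 8.0 in control arrays 1 and 2. Krt16, a keratin of activated epidermis, was higher by 4.08 ± 0.35. Of the hemidesmosome genes, the laminin chain Lama3 was higher by 2.43 and the integrin Itgb4 by 1.63, whereas its partner Itga6 was lower by -1.0 and the linker Dst by -1.1. Among luminal genes, the pioneer factor Foxa1 was higher by 0.83, and Fkbp5, an androgen and glucocorticoid target, was lower by -1.1.

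Genes of the mesenchymal transition ran the other way. Of 31 measured, 18 were lower in the Myc lines, 16 of them by at least 2-fold, and 4 were higher, with a median difference of -1.14. Cdh2, N-cadherin, was at 5.97, 5.83 and 5.63 in the Myc lines, against 10.07, 9.90 and 9.75 in the Ras lines (difference -4.10 ± 0.11, adjusted p = 5.34e-12). The homeobox factor Prrx1 was at 5.56, 5.81 and 5.62 in the Myc lines, against 9.39, 10.71 and 10.04 in the Ras lines. Both genes had no overlap between the groups, and Prrx1 stood at means of 5.66 and 5.73 in the NeuT and Src lines.

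The repressors of epithelial genes differed by family member. Zeb1 was at 5.98, 5.87 and 5.89 in the Myc lines, against 8.81, 8.52 and 8.95 in the Ras lines, a difference of -2.85 ± 0.11 (adjusted p = 2.26e-10). Zeb2 was at 5.69, 5.62 and 5.59 in the Myc lines, against 8.26, 8.25 and 8.36 in the Ras lines. NeuT and Src lines stood near the Myc lines for Zeb1, with means of 6.36 and 5.86. Snai2 was lowest in the Myc lines, and the NeuT and Src lines differed from each other. It was at 6.12, 5.93 and 5.81 in the Myc lines, against 8.82, 9.01 and 8.45 in the Ras lines, with 7.26 in NeuT and 10.18 in Src lines. Twist1 was lower by -2.26, and Snai1 did not pass (-0.05 ± 0.09, adjusted p = 0.752).

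The 4 genes of the list that were higher in the Myc lines included matrix proteins. Thbs1, thrombospondin, was at 9.35, 9.25 and 9.09 in the Myc lines, against 7.73, 7.40 and 6.82 in the Ras lines. Fibronectin, Fn1, was at 10.39, 10.65 and 10.39 in the Myc lines, against 9.19, 10.14 and 8.55 in the Ras lines (adjusted p = 0.00534). The Fn1 arrays did not overlap, though Ras 2 came close. The matrix protein Sparc was lower by -2.83 and the collagen cross-linking enzyme Lox by -1.75.

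Of 19 fibroblast and collagen genes, 1 was higher (5.26%) and 5 lower (26.3%), with a median of -0.04. The shares of all genes were 17.7% and 12.7%. The proteoglycan decorin, Dcn, was lower by -2.88 ± 0.25, while Col1a1 (0.05 ± 0.08) and Col1a2 (-0.02 ± 0.10) did not pass, with adjusted p of 0.696 and 0.92. Of 10 caveola genes, 5 were lower and 1 higher. Caveolin 1, Cav1, was at 5.41, 5.51 and 5.2 in the Myc lines, against 10.26, 9.14 and 9.47 in the Ras lines, a difference of -4.25 ± 0.20 (adjusted p = 2.16e-09). NeuT, Src and control arrays 1 and 2 had Cav1 means of 9.93, 10.27 and 9.43, so the Myc lines alone among these groups were low. The coat proteins Cavin3 (-1.54) and Cavin1 (-0.69) were lower too.

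**Figure D4:**
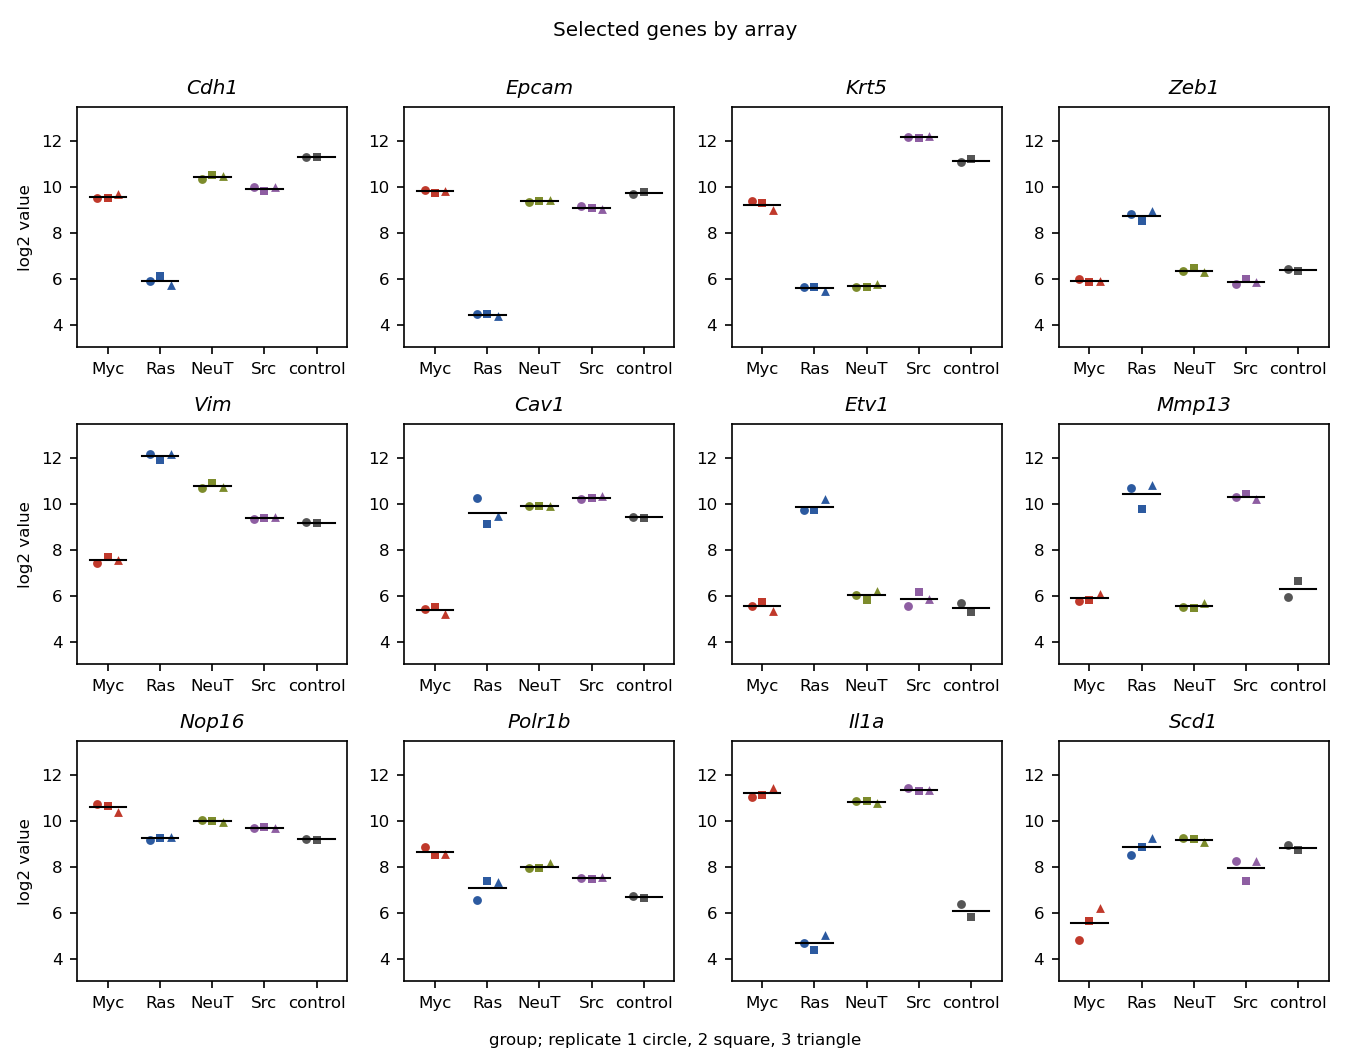
Log2 values (vertical axis) of 12 genes in the Myc, Ras, NeuT and Src lines and control arrays 1 and 2 (horizontal axis); markers show the replicate number and bars the group mean. Ras lines are apart from all others for Cdh1, Epcam, Zeb1 and Etv1, while Myc lines are apart for Cav1 and Scd1.

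More matrix protease genes were lower than higher in the Myc lines. Of 28 protease and inhibitor genes, 13 were lower, 4 were higher and 11 did not pass, with a median of -0.27. Mmp13 was at 5.78, 5.82 and 6.06 in the Myc lines, against 10.71, 9.79 and 10.83 in the Ras lines. Src lines had a like Mmp13 level, with a mean of 10.32, while NeuT lines had 5.55. The stromelysins Mmp3 (-3.35 ± 0.43) and Mmp10 (-1.84 ± 0.25), the inhibitor Timp1 (-1.82 ± 0.12) and the serpin Serpinb2 (-2.36 ± 0.28) were lower as well. Mmp3 was at 9.94, 10.29 and 7.91 in the Ras lines, so Ras 3 was the lowest, and its difference was -4.09 without that array. The urokinase gene Plau was higher, by 2.44 ± 0.26, and so was the sheddase Adam12, by 2.26 ± 0.15. The gelatinases Mmp2 (-0.06 ± 0.10) and Mmp9 (0.37 ± 0.19) did not pass, with adjusted p of 0.758 and 0.181, but Mmp9 passed without Ras 2 (0.57, adjusted p = 0.0218).

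AP-1, the dimer of Jun and Fos proteins, binds TGANTCA, and the stretches with that motif before Mmp13, Mmp3 and Mmp10 are shown because these 3 neighbouring genes were lower together. They are RefSeq sequence in GRCm38.p6 on the plus strand, with the motif in capitals, at chr9:7272444-7272513, chr9:7445741-7445817 and chr9:7502244-7502320.
Mmp13: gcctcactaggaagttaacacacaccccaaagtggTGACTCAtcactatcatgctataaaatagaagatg
Mmp3: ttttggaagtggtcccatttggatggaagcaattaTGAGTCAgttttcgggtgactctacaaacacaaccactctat
Mmp10: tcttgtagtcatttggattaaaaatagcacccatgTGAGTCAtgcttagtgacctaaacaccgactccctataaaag
The motif begins 35, 46 and 63 bases before the start. Its reverse complement is the same pattern. It stood in 8 of 19 protease and inhibitor genes with a promoter (42.1%), in 61 of 456 genes called lower in the Myc lines, in 7.55% of those called higher and in 7.12% of all matched genes. These shares were not tested.

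Integrins outside the hemidesmosome were split, with 5 of 17 higher and 6 lower, or 6 and 5 after median centring or without Ras 2. Itgb6, the epithelial integrin that activates TGF-beta, was higher by 2.37 ± 0.11, and the fibronectin receptor chain Itga5 was lower by -1.14 ± 0.10. TGF-beta and BMP genes were split too, with 8 of 29 higher and 5 lower. The activin chain Inhba was at 10.59, 10.58 and 10.58 in the Myc lines, against 7.31, 8.21 and 6.16 in the Ras lines (3.36 ± 0.33, adjusted p = 3.87e-06). The ligand Tgfb3 (-1.38) and the co-receptor Tgfbr3 (-1.48) were lower.

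Genes that act in the Ras pathway differed in both directions. Of 21 Ras genes and regulators, 6 were lower in the Myc lines and 1 was higher. That lean was not stable, with 3 higher and 4 lower after median centring, 3 and 3 without Myc 3, 2 and 7 without Ras 2 and 1 and 4 without Ras 3. The GTPase-activating genes Nf1 (-0.80 ± 0.13), Rasa1 (-0.62 ± 0.10) and Rasa4 (-0.31 ± 0.08) were lower, and the ERK kinase gene Map2k2 was higher, by 0.81 ± 0.10. Of 25 genes of ERK output and feedback, 12 were lower and 7 higher, with a median of -0.20. The ETS factor Etv1 was at 5.54, 5.74 and 5.35 in the Myc lines, against 9.74, 9.73 and 10.21 in the Ras lines. That difference of -4.35 ± 0.17 (adjusted p = 3.36e-10) was the largest in the list, and NeuT and Src lines had Etv1 means of 6.03 and 5.85.

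The relatives of Etv1 differed less, Etv4 by -0.52 and Etv5 by -0.61, and Etv5 no longer passed without Ras 2 (-0.44, adjusted p = 0.109), Ras 3, Myc 1 or Myc 2. Several feedback inhibitors of ERK signalling were lower in the Myc lines than in the Ras lines. Spred1 differed by -1.52, the ERK phosphatase Dusp6 by -1.06, Spry2 by -0.97 and Spry4 by -0.90. Dusp6 was at 6.97, 6.83 and 7.17 in the Myc lines, against 7.93, 7.98 and 8.25 in the Ras lines. Yet NeuT and Src lines were above both, with Dusp6 means of 8.74 and 8.60. Another phosphatase, Dusp7, was higher by 1.33 ± 0.10, and the ETS factor Ets2 by 1.52 ± 0.13.

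Immediate early and AP-1 genes showed 7 of 23 higher and 2 lower. Klf6 was higher by 1.47 and Atf3 by 0.91, whereas the AP-1 member Jun was lower by -0.68 and Maff by -0.91. Among 16 ERBB receptors and ligands, 5 were higher and 5 lower. Of the 4 receptors, 3 were higher. Egfr was at 8.49, 8.43 and 8.32 in the Myc lines, against 6.30, 6.86 and 6.25 in the Ras lines (1.94 ± 0.13, adjusted p = 7.52e-08), and Erbb3 differed by 1.79 and Erbb2 by 0.60. Of the ligands, Hbegf (-1.04) and Ereg (-1.26) were lower and Nrg1 (1.14) was higher.

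Genes of ribosome assembly and RNA polymerase I were higher in the Myc lines. Of 35 measured, 30 were higher, 10 of them by at least 2-fold, and 0 were lower by limma, also at an unadjusted p under 0.05. The median was 0.73. The assembly factor Nop16 was at 10.77, 10.66 and 10.40 in the Myc lines, against 9.19, 9.25 and 9.31 in the Ras lines (1.36 ± 0.09, adjusted p = 8.39e-08). NeuT and Src lines lay between, with means of 10.00 and 9.72. Polr1b, a large subunit of RNA polymerase I, was at 8.88, 8.51 and 8.56 in the Myc lines, against 6.57, 7.37 and 7.33 in the Ras lines. Wdr74 (1.34), the snoRNP protein Nhp2 (1.18), the PeBoW complex member Pes1 (1.16) and Noc4l (0.97) were higher too.

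The abundant nucleolar proteins did not pass. Npm1 was at 11.95, 11.99 and 11.86 in the Myc lines, against 12.03, 12.06 and 12.04 in the Ras lines (-0.10 ± 0.08, adjusted p = 0.398), and Ncl differed by -0.13 ± 0.08 (adjusted p = 0.243). By array, the median level of the list was 10.04, 10.02 and 9.96 in the Myc lines, against 9.05, 9.21 and 9.07 in the Ras lines. NeuT lines had 9.83 to 9.91, Src lines 9.57 to 9.64, and control arrays 1 and 2 had 8.93 and 8.81.

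Nucleotide, polyamine and one-carbon synthesis gave a like picture, with 19 of 27 genes higher and 0 lower by limma, also at an unadjusted p under 0.05. The median was 0.58. The purine enzyme Gart was at 9.48, 9.37 and 9.54 in the Myc lines, against 8.32, 8.51 and 8.45 in the Ras lines (1.03 ± 0.09, adjusted p = 8.84e-07). The folate enzyme Mthfd1 (1.18), the phosphoribosyl pyrophosphate synthetases Prps2 (1.15) and Prps1 (0.76) and the spermidine synthase Srm (0.93) were also higher. Odc1, the first enzyme of polyamine synthesis and a textbook target of Myc, did not pass (-0.04 ± 0.08, adjusted p = 0.796). Of 14 genes of the Myc and Max network, 4 were higher, namely the Max partners Mxi1 (1.23), Mga (0.59) and Mnt (0.27) and Max itself (0.32), and 0 were lower by limma, also at an unadjusted p under 0.05. The count rested on single arrays, with 1 higher without Myc 1, 2 without Ras 1 and 1 when only the Myc and Ras arrays were fitted.

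CACGTG, the sequence that Myc and Max bind, equals its own reverse complement. It stood in 2 of 30 ribosome genes with a promoter (6.67%), in 4 of 24 nucleotide genes (16.7%) and in 8.11% of all matched genes. Genes called higher in the Myc lines held it in 8.98% and those called lower in 8.33%. These shares were not tested.

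Enzymes of cholesterol synthesis were higher in the Myc lines. Of 20, 17 were higher, 10 by at least 2-fold, and 0 were lower by limma, also at an unadjusted p under 0.05. The median was 1.00. Idi1, which isomerises isopentenyl pyrophosphate, was at 10.74, 10.42 and 10.58 in the Myc lines, against 8.0, 7.59 and 9.11 in the Ras lines. Pmvk, the phosphomevalonate kinase, was at 8.59, 8.16 and 8.28 in the Myc lines, against 6.47, 6.24 and 6.62 in the Ras lines (1.90 ± 0.12, adjusted p = 4.16e-08). The sterol enzymes Cyp51 (1.87), Hmgcs1 (1.80), Fdps (1.40) and Lss (1.38) followed. Srebf2, the regulator of this pathway, was higher by 0.55. Ras 3 was above the mean of the other Ras arrays by at least 2-fold for 6 of the 20, and without it 17 were again higher, with a median of 1.21.

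Fatty acid genes moved in part together. Of 17, 7 were higher and 2 lower. The elongase Elovl7 (3.06), the desaturase Fads2 (2.11), the citrate lyase Acly (1.72) and the synthase Fasn (1.28) were higher. Scd1, which makes oleate, was at 4.79, 5.63 and 6.22 in the Myc lines, against 8.54, 8.86 and 9.27 in the Ras lines (-3.34 ± 0.31, adjusted p = 1.84e-06). NeuT and Src lines, with Scd1 means of 9.20 and 7.96, were on the Ras side. Its relative Scd2 was higher in the Myc lines, by 1.09 ± 0.25. The regulator Srebf1 did not pass (0.04 ± 0.10, adjusted p = 0.832).

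Energy genes were divided. Oxidative phosphorylation had 10 of 23 higher and 1 lower, with the complex I subunit Ndufv1 at 1.43 ± 0.14. The higher count was 6 without Myc 1, 6 with only the Myc and Ras arrays, 4 with the controls in the fit and 13 after median centring. Glycolysis and glucose uptake had 5 of 21 higher and 7 lower. The phosphofructokinases went apart, with Pfkp lower by -2.19 ± 0.19 and Pfkm by -0.85, and the activator Pfkfb3 higher by 0.75. Lactate dehydrogenase, Ldha, did not pass (0.01 ± 0.11, adjusted p = 0.983). Of 19 hypoxia targets 8 were lower, among them the prolyl hydroxylases Egln3 (-2.31) and P4ha1 (-1.60), and 5 were higher, such as the carbonic anhydrase Car12 (1.17). Of 23 glutathione and NRF2 genes 7 were lower, including Gstm1 (-2.01) and Nqo1 (-1.95), and 5 were higher. Genes of ATF4 and the unfolded protein response had 7 of 22 higher, such as Slc3a2 (0.97), and 6 lower, such as Ddit3 (-0.91). The higher count was 3 without Myc 1 and 4 without Ras 3, against 6 lower each time.

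Proliferation genes passed in both directions. Of 30 mitosis genes 4 were higher and 6 lower, with a median of -0.10, and these counts turned with scaling, to 5 and 4 after median centring and 2 and 9 after quantile normalization. They were 1 and 7 without Myc 1, 4 and 3 without Myc 3, 1 and 5 without Ras 1 and 5 and 4 without Ras 2. Mki67 (-0.30 ± 0.11) and Top2a (-0.06 ± 0.10) did not pass, with adjusted p of 0.0585 and 0.726, although Mki67 passed as lower without Myc 1 (-0.39, adjusted p = 0.0332). Of 31 DNA replication genes 7 were higher and 4 lower, with the polymerase subunits Pola2 (0.99) and Prim1 (0.68) among the higher. The balance turned with scaling, to 10 higher and 1 lower after median centring and 6 and 7 after quantile normalization. Without Ras 3 it was 7 and 1, and leaving out any of the Myc arrays or Ras 2 left 1 or 2 lower. The pocket protein Rbl1, a relative of the retinoblastoma protein, was at 6.96, 6.91 and 6.60 in the Myc lines, against 8.63, 8.78 and 8.94 in the Ras lines (-1.96 ± 0.13, adjusted p = 5.62e-08). NeuT and Src lines had Rbl1 means of 8.41 and 9.01, so the Myc lines were the low group. The cyclins Ccnd2 (0.97) and Ccnd1 (0.34) were higher, Ccnd1 not without Myc 1 (adjusted p = 0.0825) or Ras 2, and the CDK inhibitor Cdkn2d (-0.76) was lower.

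Of 20 genes measured in the list of p53 and its targets, 15 were higher in the Myc lines and 3 lower, with a median of 0.76. The p53 gene itself, Trp53, and the targets Cdkn1a, Bax and Gdf15 were not measured. By array, the median level of the list was 8.08, 8.16 and 8.27 in the Myc lines, against 7.40, 7.06 and 7.44 in the Ras lines. NeuT lines had 7.87 to 8.25, Src lines 7.75 to 7.82, and control arrays 1 and 2 had 8.61 and 8.52. The apoptosis gene Pmaip1 was at 7.89, 7.94 and 8.09 in the Myc lines, against 6.0, 6.64 and 6.19 in the Ras lines (1.70 ± 0.14, adjusted p = 5.16e-07). The desmosome-linked Perp (1.93), which is also an epithelial gene, the antiproliferative Btg2 (1.32) and the p53 ligase Mdm2 (0.84) were higher. Trp53inp1 differed by 1.52 ± 0.36, with Ras values of 7.92, 6.09 and 8.03, so that Ras 2 was the lowest.

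Secreted cytokines and chemokines differed in both directions. Of 48, 14 were higher and 16 lower, and 10 and 11 of these by at least 2-fold. After median centring 16 were higher and 13 lower. Besides Il1a, the chemokines Cxcl16 (3.77 ± 0.20) and Cxcl3 (2.06 ± 0.40) and the interleukin subunit Il23a (2.78 ± 0.14) were higher in the Myc lines. Cxcl16 was at 9.48, 9.65 and 9.83 there, against 6.13, 6.27 and 5.24 in the Ras lines. Lower were the monocyte chemokines Ccl2 and Ccl7, the alarmin Il33, the growth factor Fgf7 and the epithelial cytokine Tslp. Ccl2 was at 7.65, 7.43 and 7.43 in the Myc lines, against 12.07, 11.72 and 12.10 in the Ras lines. Il33 differed by -4.05 ± 0.22, Fgf7 by -3.65 ± 0.39, Tslp by -2.58 ± 0.16, Ccl20 by -2.25 ± 0.16, Ccl7 by -2.23 ± 0.22 and Ccl5 by -2.14 ± 0.10. Il6 passed at low levels, with 3.39, 3.35 and 3.50 in the Myc lines, against 6.28, 4.52 and 4.98 in the Ras lines.

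The interferon list depended on 1 array. Ras 3 was at least 2-fold above the mean of Ras 1 and Ras 2 for 32 of 39 interferon genes and for 149 of all 19938 genes. The median level of the list was 6.07, 6.08 and 6.28 in the Myc lines, against 6.23, 6.26 and 8.77 in the Ras lines. With all arrays, 1 of 39 was higher and 7 were lower in the Myc lines, with a median of -0.54. Without Ras 3, 12 were higher and 8 lower, with a median of -0.03. Without Ras 1 the counts were 0 and 17, and without Ras 2 they were 1 and 12.

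Single genes show the same split. Ifit1, an RNA-binding effector, was at 5.41, 5.49 and 5.48 in the Myc lines, against 6.53, 6.26 and 9.32 in the Ras lines. Usp18, the brake on interferon signalling, was at 5.98, 5.98 and 6.31 in the Myc lines, against 6.08, 5.93 and 9.52 in the Ras lines. In both, Ras 3 was far above Ras 1 and Ras 2. Rtp4 turned direction, with a difference of -1.13 over all arrays (adjusted p = 0.467) and of 0.69 without Ras 3 (adjusted p = 0.0392). Xaf1 did so too, at -0.48 (adjusted p = 0.64) and 0.65 (adjusted p = 0.00184). Ifit2 did not depend on that array. It was at 5.07, 5.22 and 5.2 in the Myc lines, against 8.46, 8.30 and 8.82 in the Ras lines, with differences of -3.37 ± 0.11 and, without Ras 3, of -3.22. The RNA sensor Ddx58 was lower by -2.11 with Ras 3 and by -1.55 without it.

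Jak1, the kinase of interferon receptors, was chosen after its values were seen. It was at 9.57, 9.32 and 9.24 in the Myc lines, against 7.5, 7.06 and 10.29 in the Ras lines, with means of 9.86 in NeuT lines, 9.78 in Src lines and 10.51 in control arrays 1 and 2. Ras 1 and Ras 2 were low and Ras 3 was not, so the difference was 1.1 ± 0.56 (adjusted p = 0.172) with all arrays and 2.10 without Ras 3 (adjusted p = 6.87e-08). Among 15 genes of MHC class I presentation, 3 were higher and 4 lower. B2m, the light chain of class I, was at 11.84, 11.81 and 11.76 in the Myc lines, against 12.54, 12.45 and 12.72 in the Ras lines (-0.77 ± 0.09). Without Ras 3, 6 of the 15 were higher and 4 lower, without Ras 1 these were 1 and 4, and without Myc 2 they were 1 and 3.

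**Figure D5:**
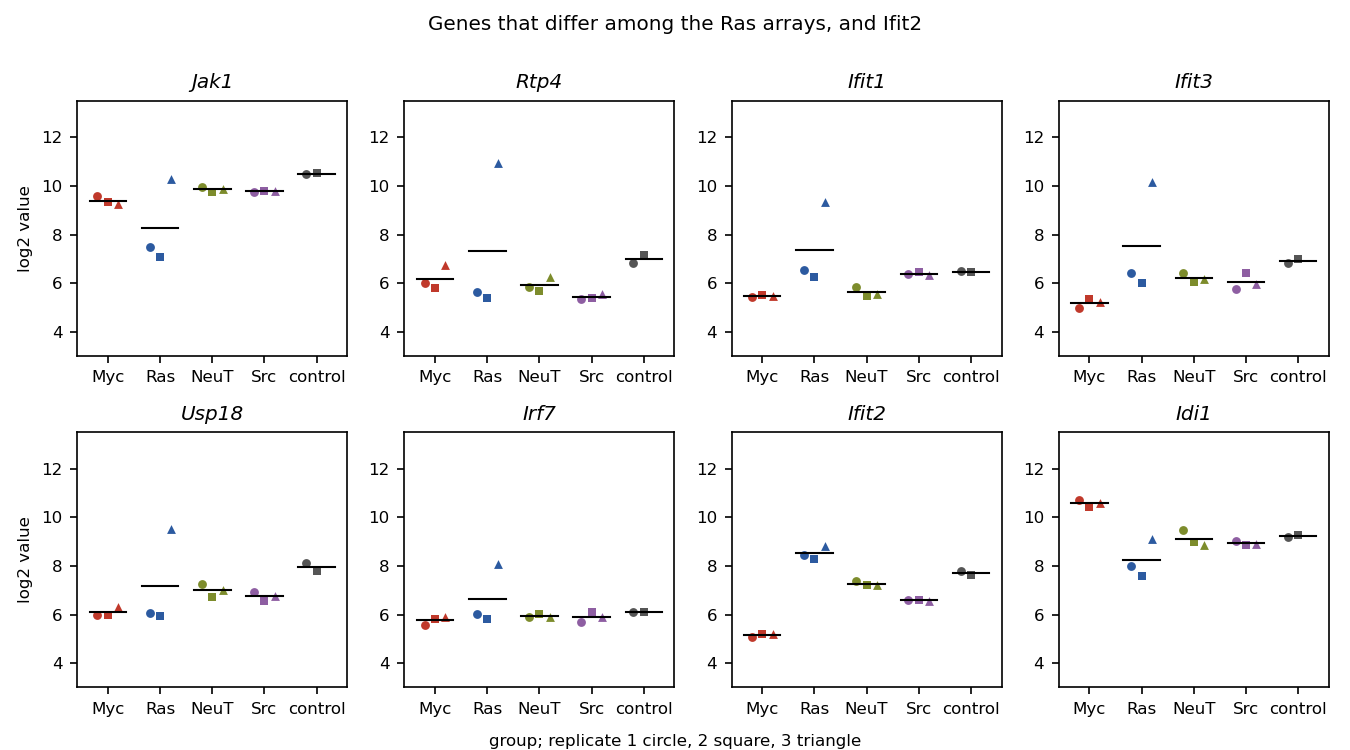
Log2 values (vertical axis) of 8 genes in the Myc, Ras, NeuT and Src lines and control arrays 1 and 2 (horizontal axis); markers show the replicate number and bars the group mean. Ras array 3, the blue triangle, stands above the other Ras arrays for Jak1, Rtp4, Ifit1, Ifit3, Usp18, Irf7 and Idi1, while Ifit2 is high in all 3 Ras arrays.

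Developmental pathways were read next. Of 41 Wnt genes 12 were higher and 2 lower, with the secreted antagonist Sfrp1 at 1.86 ± 0.19 and the receptor Fzd7 at -1.45 ± 0.13. Of 21 Notch genes 9 were higher and 2 lower. The ligand Jag1 was at 8.66, 8.40 and 8.21 in the Myc lines, against 6.16, 6.90 and 5.08 in the Ras lines (2.37 ± 0.30, adjusted p = 3.84e-05), and the target Hes1 was higher by 1.13. Of 37 Hox genes 7 were higher (18.9%), close to the 17.7% of all genes. In that list 0 were lower by limma, also at an unadjusted p under 0.05, and the median was 0.07. Without Ras 2, 11 were higher. Those named by p were all of the Hoxb cluster, Hoxb5 (1.26), Hoxb9 (0.92), Hoxb6 (0.79) and Hoxb13 (0.76), the last of them a prostate regulator.

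Markers of other cell types were read in the same arrays. Median list levels lay from 5.82 to 5.92 in the Myc lines and from 5.79 to 5.92 in the Ras lines for endothelial markers, and from 5.42 to 5.47 and from 5.47 to 5.61 for leukocyte markers. The defining genes Pecam1 (-0.03 ± 0.08) and Ptprc (-0.04 ± 0.09) did not pass, with adjusted p of 0.861 and 0.819, and their levels stayed below 6.46 in all 6 arrays. Of 21 endothelial markers 1 was higher and 2 lower, and of 27 leukocyte markers 2 were higher and 2 lower. Cd34, counted there, was at 5.83, 5.83 and 5.85 in the Myc lines, against 10.74, 11.20 and 11.09 in the Ras lines. The leukocyte tetraspanin Cd53 was at 5.0, 5.21 and 4.98 in the Myc lines, against 8.55, 5.75 and 7.43 in the Ras lines.

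Of 15 smooth muscle markers 1 was higher and 3 lower, and without Ras 3 these were 0 and 5. Acta2, smooth muscle actin, was at 6.07, 6.06 and 6.20 in the Myc lines, against 6.53, 7.49 and 6.09 in the Ras lines, with Ras 2 the highest (adjusted p = 0.0877, and 0.00409 without Ras 3). Cnn1 and Myl9 were also highest in Ras 2, at 7.01 and 7.67. Of 17 neuroendocrine and neuronal markers 2 were higher and 5 lower. Besides Nefm, its neighbour Nefl was lower by -1.01, and the neuroendocrine granule protein Chga did not pass (0.07 ± 0.10, adjusted p = 0.688). Of 12 kidney markers 0 passed by limma in either direction, also at an unadjusted p under 0.05, and 1 was higher without Ras 2. The labelled tissue was checked in the same way. In the Myc lines Epcam, Krt5, Krt7 and Krt8 were above 6.46 in all 3 arrays. In the Ras lines Epcam, Krt5 and Krt7 lay below it in all 3, whereas Krt8 was above it, at 7.72, 7.73 and 7.32. Krt5 was as low in the NeuT lines, where Vim was also high, so neither gene sets the Ras lines alone apart.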

How the data were processed

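Per the labels' protocols, Trizol RNA was amplified by WT-Ovation Pico and carried a biotin label. The deposited values are on a log2 scale, as the authors normalized them. The submitters' processing notes name RMA and the software Affymetrix Expression Console 1.1 without saying what each did. Background settings and the annotation build: not given in the sources used here. Of 35556 probe sets, 21789 name 1 gene, 1621 name more than 1 and 12146 name no gene. Only the first kind was used, and the probe set with the highest mean stood for each of 999 genes with several, which gave 19938 genes. Low values were not filtered out.

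A model with 4 group means was fitted to the 12 line arrays with limma 3.58.1 (lmFit, eBayes) in R 4.3.3. Controls stayed out because of their medium and because control array 3 held kidney transcripts (list median 9.56, against 5.84 and 5.82 in the other control arrays). Tests were two-sided, with Benjamini-Hochberg adjustment of p over the 19938 genes. Errors are SE, and 3 arrays per group limit the precision. The spread of a gene is pooled over the 4 groups, so SE and p can be too small where the Ras arrays vary more. The fit was tested on simulated data in which a gene had the same spread in every group, so that test does not cover unequal spread. Python 3.11.15 with matplotlib 3.10.9, numpy 2.4.6 and pandas 2.3.3 prepared values and figures.

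Named genes were the 14 largest differences in each direction among genes past an adjusted p of 0.05 with and without Ras 3, with no overlap of arrays and a higher mean of at least 6.46, predicted genes passed over. Other named genes were the oncogenes and at most 4 members per list with the smallest p. Further genes were added by hand with no rule on p, each list's defining members among them. In all, 272 genes were named. Jak1, Casd1, Phf11d and Sp100 were chosen after their values were seen. The groups compared and the 39 gene lists were chosen with earlier results of these data known. Alternatives were median centring, quantile normalization, leaving out genes with a mean under 6.46, averaging probe sets, every probe set, a trended robust variance, array weights, other sets of arrays, the replicate number as a block, no fold minimum and leaving out each array.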

Additional observations from a re-analysis of the deposited data

Results flagged for a closer look

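Probe sets with no gene assigned were outside the comparison of genes. By the same fit and rule, 841 of 12146 were lower in the Myc lines than in the Ras lines and 104 were higher, 7.78% in both directions together. Their median level was 5.61, 5.64 and 5.65 in the Myc arrays, against 5.93, 5.93 and 5.87 in the Ras arrays. NeuT and Src arrays had medians from 5.62 to 5.67, and control arrays from 5.74 to 5.80, so the Ras arrays were the highest. Of the 1621 probe sets with several genes, 35 were higher and 30 lower (4.01%).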

How the results depend on the processing

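The counts of 611 genes higher and 621 lower in the Myc lines stayed within 1.5 times their size under all alternatives run other than 2. With no fold minimum they were 3529 and 2525, and without Ras 3 3420 and 2458. Without dim genes, where 10080 genes were tested, 403 were lower, and the number of genes lower in Myc than Ras without Ras replicate 3 was 378; fewer genes were tested there. Leaving out each array in turn gave 583 to 670 higher and 595 to 676 lower. Median centring gave 715 and 550, with a median difference of 0.081, and quantile normalization 524 and 663. Fitting only the Myc and Ras arrays gave 608 and 597, and adding the controls 609 and 616. With no fold minimum, the rule of the list counts, only the Myc and Ras arrays gave 2838 and 1982, and adding the controls 3303 and 2363. Every single-gene probe set, tested separately, gave 644 and 675 of 21789. The replicate numbers share no stated source. Deviations of same-numbered Myc and Ras arrays correlated with -0.084, 0.096 and 0, and those of differently numbered arrays with -0.127 to 0.121. Deviations within a group sum to 0, so these values cannot decide whether the numbers pair the samples. With the replicate block 612 genes were higher and 622 lower. The Myc minus Ras differences of named genes were compared with the main fit over all alternatives. Of these, 3934 stayed on the same side of the threshold, 82 no longer passed, 25 newly passed and 3 turned direction. A difference counted as turned where its sign changed and the main fit or the alternative passed. Changes of sign where neither passed were counted as staying, here and for the differences that follow. All 3 turned without Ras 3. Leaving out each array in turn, Rtp4 ranged from -2.1 to 0.69, Xaf1 from -1.1 to 0.65 and Casd1 from -1.24 to 0.92, and without Ras 3 they were 0.69, 0.65 and -1.24. Of the Ras differences from the mean of NeuT and Src, 4 turned without Ras 3, with ranges of -0.87 to 0.93 for Usp18, -0.73 to 1.02 for Xaf1, -0.55 to 0.38 for Ifi35 and -1.8 to 0.36 for Casd1. That of Top2a turned when probe sets were averaged (0.36). Ras 3 itself is the array that differs in these genes, and for Top2a the cause was not tested. Levels near background limit the differences of genes under 6.46.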

Other observations

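Genes of the Y chromosome differed within the comparison. Eif2s3y was at 6.30, 7.20 and 7.38 in the Myc lines, against 3.41, 3.40 and 3.61 in the Ras lines, with means of 3.37 in NeuT and 3.62 in Src lines and 8.74 in control arrays 1 and 2. Uty and Kdm5d were also higher in the Myc lines, by 1.04 ± 0.11 and 1.31 ± 0.20, and the RNA Xist of the inactive X chromosome did not pass (-0.18 ± 0.13, adjusted p = 0.332).

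Median differences by chromosome were read over 10050 genes at or above the median level. Chromosome 18 had the lowest Myc minus Ras median, -0.38 over 251 genes, and chromosome 19 the highest, 0.31 over 358 genes. The medians of all other chromosomes lay between -0.10 and 0.22. Against the mean of NeuT and Src, chromosome 18 had medians of 0.10, 0.08 and 0.06 in the Myc arrays, against 0.41, 0.56 and 0.49 in the Ras arrays. Chromosome 19 had 0.12, 0.00 and 0.03 in the Myc arrays, against -0.29, -0.25 and -0.26 in the Ras arrays. The side that departed on chromosome 19 depended on the reference. Against control arrays 1 and 2, its median was 0.2 for the Myc group and -0.06 for the Ras group. On chromosome 18 these were -0.06 and 0.32. Of the genes at or above the median level, 9 were called higher and 33 lower in the Myc lines on chromosome 18. On chromosome 19 these were 52 and 8. For scale, the fit without dim genes called 559 of 10080 genes higher and 403 lower.

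Casd1, a sialic acid acetyltransferase gene chosen after its values were seen, was at 7.13, 7.53 and 7.43 in the Myc lines, against 8.51, 8.69 and 4.37 in the Ras lines. Ras 3 was the array with the low value. Phf11d was at 4.37, 4.47 and 4.47 in the Myc lines, against 4.71, 4.0 and 9.06 in the Ras lines, and the nuclear body gene Sp100 at 5.16, 5.16 and 5.15, against 6.33, 5.23 and 9.89. Both were also chosen after their values were seen.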
